A study of Mus musculus with 2 samples.

Results

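Glo1, Hddc3, AY036118, Txnip and Rpgrip1 are 5 of the 31053 genes measured in both of 2 mouse brain single-cell libraries. They were listed because their measured levels differed between the libraries, so every ratio of the postnatal over the embryonic library given here describes the values that chose them and supports nothing. The question put to them was whether each differed alike in every cell type or only in some. All 5 were measured in both libraries, with 43 to 6974 unique molecular identifiers (UMIs, each counted as 1 captured RNA molecule) at embryonic day 18 (E18) and 312 to 3519 at postnatal day 2 (P2). Hddc3, AY036118 and Rpgrip1 had levels in the clusters of one library that did not overlap those of the other. Glo1 was lower at P2 in every class named in both libraries, while its level within each library varied among classes. Txnip was higher at P2 in the 3 compared classes with 20 or more cells in each library, but by uneven amounts. Its log2 ratio was 1.18 in cycling cells and 5.52 in stem cells, the latter from 1 E18 UMI. In microglia, with 8 E18 cells, it was -0.41 (-1.60 to 1.08). The cluster levels of Txnip overlapped between the libraries.

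The E18 library was made from CD1 mice, an outbred stock, from the cortex with the dorsal ventricular-subventricular zone (V-SVZ), the germinal layer beside the lateral ventricle. The P2 library was made from mice of genotype Emx1Cre;R26Eyfpfl/fl, in which the Emx1 promoter drives Cre and cells of cortical descent carry EYFP, from the dorsal and lateral V-SVZ after removal of the cortex. Both suspensions were papain-digested and sorted for living nucleated cells, and polyadenylated RNA was the labelled molecule. There was 1 library per age, how many animals went into each was not found in the labels, and age, tissue, mouse line, library and its chemistry cannot be told apart. For that reason no test was possible, and all 95% intervals below are exact and cover counting error only. Filtering left 2474 E18 cells (median depth 6567 UMIs) and 2296 P2 cells (median depth 12525 UMIs), and the libraries shared 0 cell barcodes. The sex of the cells also differed: at E18 1508 cells had Y-linked UMIs without Xist and 0 had Xist alone, while at P2 there were 997 and 931. Each library was clustered by itself without the 5 genes, and names such as stem cell below mean cells like that type by their markers.

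The 5 genes come from unrelated systems. Glo1 encodes glyoxalase 1, which with glutathione converts the reactive glycolysis by-product methylglyoxal, and Hddc3 encodes MESH1, an HD-domain hydrolase that removes phosphate from NADPH. Txnip encodes an alpha-arrestin that binds thioredoxin and restrains glucose uptake, and its transcription follows glucose and glucocorticoid signals. Rpgrip1 encodes a protein that anchors RPGR at the ciliary transition zone, best known in photoreceptors. AY036118 is an annotated noncoding transcript within a ribosomal RNA-like segment of chromosome 17.

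Summed over all kept cells, 2 of the 5 genes were at least 4-fold higher at E18 and 2 at least 4-fold higher at P2. Of all 16252 genes with enough UMIs, 3.43% were 4-fold or more higher at E18 and 13.6% at P2. Levels are in CPM, the gene's UMIs scaled to a common total over the same cells. Glo1 had 387 CPM in E18 cells and 92.6 CPM in P2 cells, with a log2 ratio of -2.06 (-2.12 to -2.0). Hddc3 had 103 CPM in E18 cells and 8.68 CPM in P2 cells, for a log2 ratio of -3.56 (-3.74 to -3.39). The genes lower in the P2 library were thus both enzymes of small-molecule metabolism. AY036118 had 3.77 CPM in E18 cells and 97.9 CPM in P2 cells, for a log2 ratio of 4.70 (4.35 to 5.07). Rpgrip1 had 2.38 CPM in E18 cells and 51.4 CPM in P2 cells, for a log2 ratio of 4.43 (3.99 to 4.90). Txnip, with 15.7 CPM in E18 cells and 37.6 CPM in P2 cells, had the smallest ratio of the 5, 1.26 (1.08 to 1.45), and lay inside the 4-fold limit. Glo1 lay just past that limit, at 4.17-fold. The median log2 ratio over all genes was 0.38, and scaling by TMM instead of by all UMIs lowered every ratio by 0.29 without turning the direction of any of the 5.

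Across clusters of 30 or more cells, 15 at E18 and 17 at P2, Hddc3 was nearly flat within E18 and low throughout P2. Its levels at E18 had a lowest value of 90.0, a median of 97.1 and a highest of 119 CPM. At P2 they had a lowest value of 1.53, a median of 8.41 and a highest of 17.6 CPM. AY036118 showed the opposite arrangement, low throughout E18 and high throughout P2: 2.01, 4.38 and 6.45 CPM at E18 as lowest, median and highest, against 74.6, 102 and 139 CPM at P2. Rpgrip1 had 0, 2.04 and 5.48 CPM at E18 in the same order, against 24.5, 41.6 and 90.2 CPM at P2. The 0 was in unnamed E18 cluster 7, where the exact upper limit is 3.97 CPM. No cluster of either library reached the range of the other for these 3 genes. Of all 12448 genes with 100 or more UMIs, 0.699% had non-overlapping clusters with E18 higher, as did 1 of the 5 (Hddc3), and 1.82% with P2 higher, as did 2 of the 5 (AY036118 and Rpgrip1).

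Glo1 and Txnip overlapped. Glo1 had 238, 331 and 1488 CPM in the E18 clusters as lowest, median and highest, against 49.7, 63.3 and 279 CPM at P2. The overlap came from a single cluster, the P2 stem cells at 279 CPM, which lay above the lowest E18 clusters. With a 5% limit on mitochondrial UMIs, or with doublets kept, Glo1 no longer overlapped and 4 of the 5 genes had separate ranges in place of 3. Txnip had 1.80, 10.8 and 54.4 CPM at E18 and 0, 37.2 and 82.7 CPM at P2, and the ranges overlapped over most of their length. The P2 cluster with 0 Txnip UMIs was unnamed cluster 16, of 30 cells, where the depth allows up to 10.5 CPM.

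**Figure D1:**
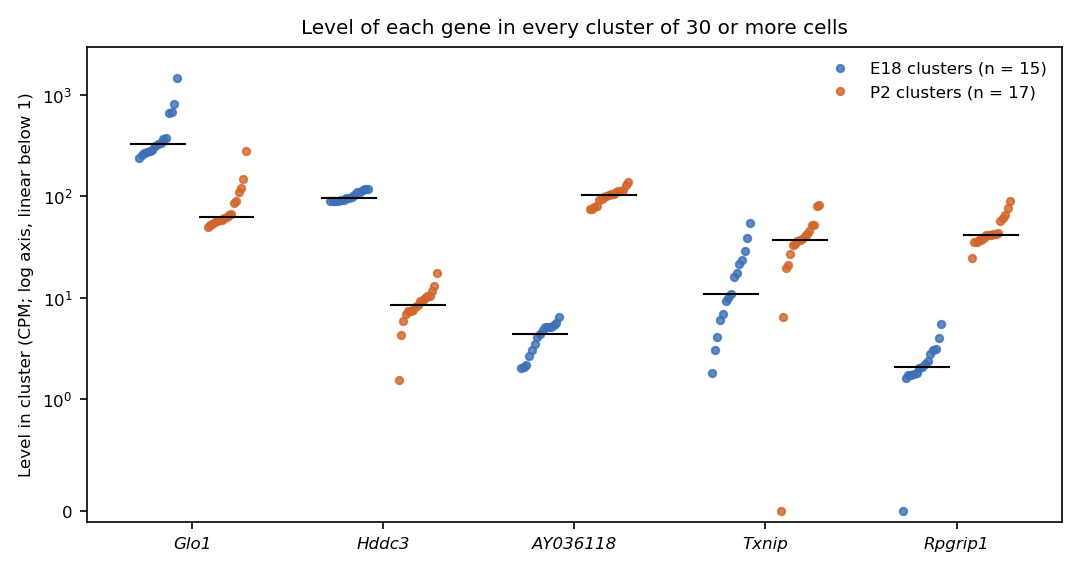
Level of each gene (CPM, log axis, linear below 1) in every cluster of 30 or more cells, with E18 clusters in blue, P2 clusters in orange and a black line at each median. Points within a column are ordered by level. Hddc3, AY036118 and Rpgrip1 form separate clouds, Glo1 meets at the P2 stem cell cluster at 279 CPM, and Txnip overlaps broadly.

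Hddc3 was lower at P2 in each class that could be compared. These were stem cells (radial precursors or neural stem cells, 92 cells at E18 and 120 at P2), cycling cells (103 and 305) and oligodendrocyte precursors (48 and 113), with microglia (8 and 44) and striatal projection neurons (10 and 154) resting on very few E18 cells. Excitatory neurons and inhibitory neuroblasts were not compared as classes, since some of their clusters were led by markers of other classes. The log2 ratio of Hddc3 was -3.34 (-4.16 to -2.58) in stem cells, -3.39 (-3.86 to -2.93) in cycling cells and -3.49 (-4.44 to -2.59) in oligodendrocyte precursors. In microglia it was -3.66 (-6.22 to -0.89), from 3 E18 and 4 P2 UMIs, and in striatal projection neurons -3.00 (-4.19 to -1.65). Over the 3 larger classes its ratios spanned 0.15 on the log2 scale, where the median gene spanned 0.86 and the quartiles of all genes were 0.48 and 1.44. Counting error enters all these spans. Each of the 3 Hddc3 intervals was wider than 0.15, and the genes compared needed only 10 UMIs over both libraries in each class. The small span depended on the cell filter, being 0.59 with a 5% mitochondrial limit and 0.87 with no filter. The spans of the others were 0.84 for Glo1, 1.06 for AY036118, 1.57 for Rpgrip1 and 4.34 for Txnip, and with the 5% limit that of Glo1 was 1.34. The AY036118 and Rpgrip1 spans rested on 5 or fewer E18 UMIs in each class. Within either library, no class of Hddc3 stood apart from the next in order beyond its interval.

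AY036118 and Rpgrip1 were higher at P2 in all 3 larger classes, with wide intervals because so few UMIs were found at E18. AY036118 had 3 UMIs in the E18 stem cells against 213 at P2, a log2 ratio of 4.24 (2.67 to 6.53). Its ratio was 3.98 (2.75 to 5.61) in cycling cells and 5.04 (2.55 to 10.35) in oligodendrocyte precursors, the latter from 1 E18 UMI. In microglia, also with 1 E18 UMI, it was 2.05 (-0.47 to 7.38). In striatal projection neurons 0 UMIs were found at E18 and 93.7 CPM at P2. With the E18 value put at 3 UMIs this gives a log2 ratio of 1.27, and the exact lower limit was 0.96. Like Hddc3, AY036118 had no class apart from the next in order in either library, but classes farther apart in the P2 order did differ. The pooled inhibitory neuroblast clusters had 118 CPM (112 to 124) at P2, against 80.8 CPM (74.9 to 87.0) in cycling cells. Rpgrip1 had a log2 ratio of 4.30 (1.78 to 9.62) in stem cells, 5.13 (3.27 to 8.18) in cycling cells and 3.56 (1.03 to 8.88) in oligodendrocyte precursors. Its E18 counts there were 1, 2 and 1 UMIs. In microglia and striatal projection neurons Rpgrip1 had 0 E18 UMIs, with exact upper limits of 66.2 and 47.7 CPM. These limits lay above the P2 levels of 24.5 and 37.2 CPM, so a difference was not detectable there. All 3 larger classes were past 4-fold for Hddc3 and Glo1, with E18 higher, as in 0.123% of 9793 genes, and for AY036118 and Rpgrip1, with P2 higher, as in 0.592%.

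Glo1 was lower at P2 in all 5 classes. Its log2 ratio was -2.41 (-2.57 to -2.26) in stem cells, -2.46 (-2.73 to -2.20) in oligodendrocyte precursors and -3.26 (-3.40 to -3.11) in cycling cells. The cycling cells' interval did not meet those of the other two, but that value rested on which P2 clusters were pooled. Against the single E18 cycling cluster, the 3 P2 cycling clusters gave -4.04 (-4.25 to -3.83) at 49.7 CPM, -3.23 (-3.65 to -2.84) at 86.9 CPM and -2.45 (-2.63 to -2.28) at 149 CPM. The last was close to the stem cells' ratio. In microglia the ratio was -2.02 (-2.95 to -0.97) and in striatal projection neurons -1.94 (-2.62 to -1.18). The class order itself was partly shared by the libraries. Stem cells had the highest Glo1 level in each, 1488 CPM (1389 to 1593) at E18 and 279 CPM (257 to 303) at P2, although 8 P2 ependymal cells, with 275 CPM (228 to 329), could not be separated from the latter. Cycling cells followed at E18 with 817 CPM (761 to 875), above the excitatory intermediate progenitors at 688 CPM (623 to 759). At P2 oligodendrocyte precursors had 121 CPM (106 to 136) and inhibitory intermediate progenitors 112 CPM (101 to 122), and the P2 cycling clusters lay on either side of them. Neuronal classes and microglia were low in both libraries, at 60.8 to 67.5 CPM in P2 neurons and 53.3 CPM in P2 microglia.

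**Figure D2:**
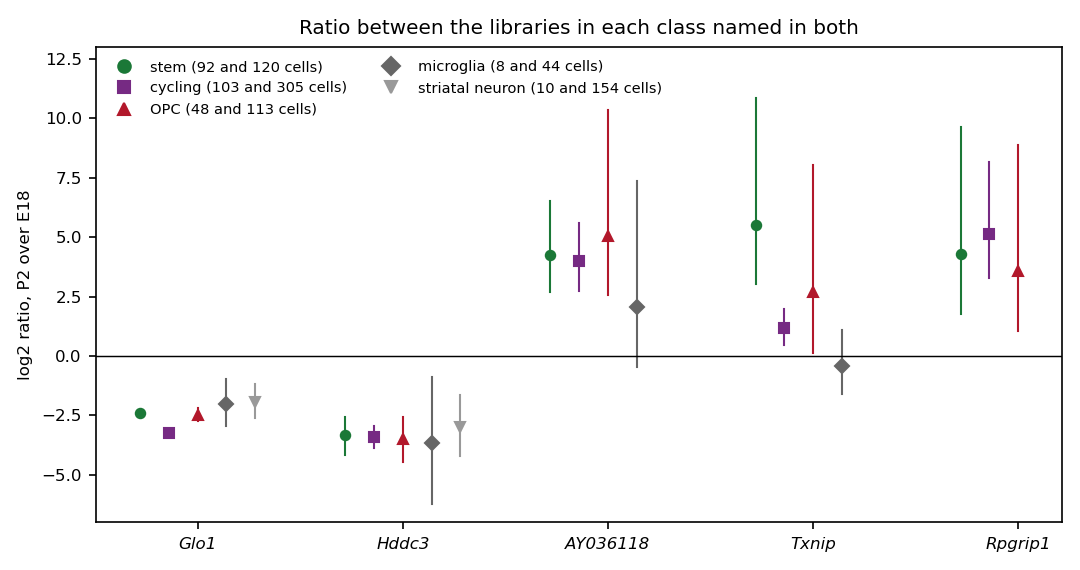
log2 ratio of P2 over E18 for each gene in each class named in both libraries, with bars for the 95% counting interval and cell numbers (E18 and P2) in the key. Stem stands for radial precursors or neural stem cells and OPC for oligodendrocyte precursors, and classes with 0 UMIs in a library are left out. The 5 Hddc3 points lie between -3.66 and -3.00, while the Txnip points run from -0.41 in microglia to 5.52 in stem cells.

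Txnip changed its order among the classes. In the E18 stem cells 1 Txnip UMI was found in 92 cells, or 1.80 CPM, and in the P2 stem cells 173 UMIs in 120 cells, or 82.7 CPM, a log2 ratio of 5.52 (3.03 to 10.84). The ratio was 2.69 (0.13 to 8.02) in oligodendrocyte precursors, from 1 and 41 UMIs, and 1.18 (0.48 to 1.98) in cycling cells, from 17 and 341 UMIs. All 3 intervals lay above 0, those of stem and cycling cells did not meet, and the 3 ratios spanned 4.34. In microglia Txnip stood at 108 CPM (39.5 to 234) in 8 E18 cells and 81.0 CPM (63.8 to 101) in 44 P2 cells, a log2 ratio of -0.41 (-1.60 to 1.08). At coarser clustering (Leiden resolution 0.5) the stem cell ratio of Txnip was 2.84, and the cycling class could not be compared. There the E18 stem cell cluster, of 212 cells, also had the cycling markers Ube2c, Top2a and Hmgb2 among its leading genes. The P2 stem cell cluster, of 133 cells, did not, so the classes compared were unlike.

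Within E18, the highest Txnip levels in classes of 20 or more cells were in excitatory intermediate progenitors, 54.4 CPM (37.2 to 76.8), and the lowest in stem cells and oligodendrocyte precursors, with 1 UMI each. Within P2, stem cells and microglia led and did not differ beyond their intervals. The pooled inhibitory neuroblast clusters at 39.6 CPM (36.1 to 43.4) followed. Close to them were cycling cells at 39.5 CPM (35.4 to 43.9) and interneurons at 37.6 CPM (27.5 to 50.1). Oligodendrocyte precursors at 19.5 CPM (14.0 to 26.4) and striatal projection neurons at 6.45 CPM (3.43 to 11.0) were near the lower end. Stem cells thus stood near the bottom of the Txnip order at E18 and at the top at P2. Rpgrip1 also had an order within P2: inhibitory intermediate progenitors, 76.5 CPM (68.2 to 85.5), and cycling cells, 71.5 CPM (66.0 to 77.4), stood above the interneurons at 43.3 CPM (32.4 to 56.6) and the stem cells at 35.4 CPM (27.8 to 44.4). That progenitor class was P2 cluster 3, led by DNA replication genes such as Mcm3, Mcm2 and Mcm5, with 0 of its own markers among its leading genes. Both leading classes were thus marked by genes of proliferating cells. Ependymal cells, the motile-ciliated class, had 28.0 CPM (14.4 to 48.8) of this ciliary gene in 8 cells, not above the other classes.

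**Figure D3:**
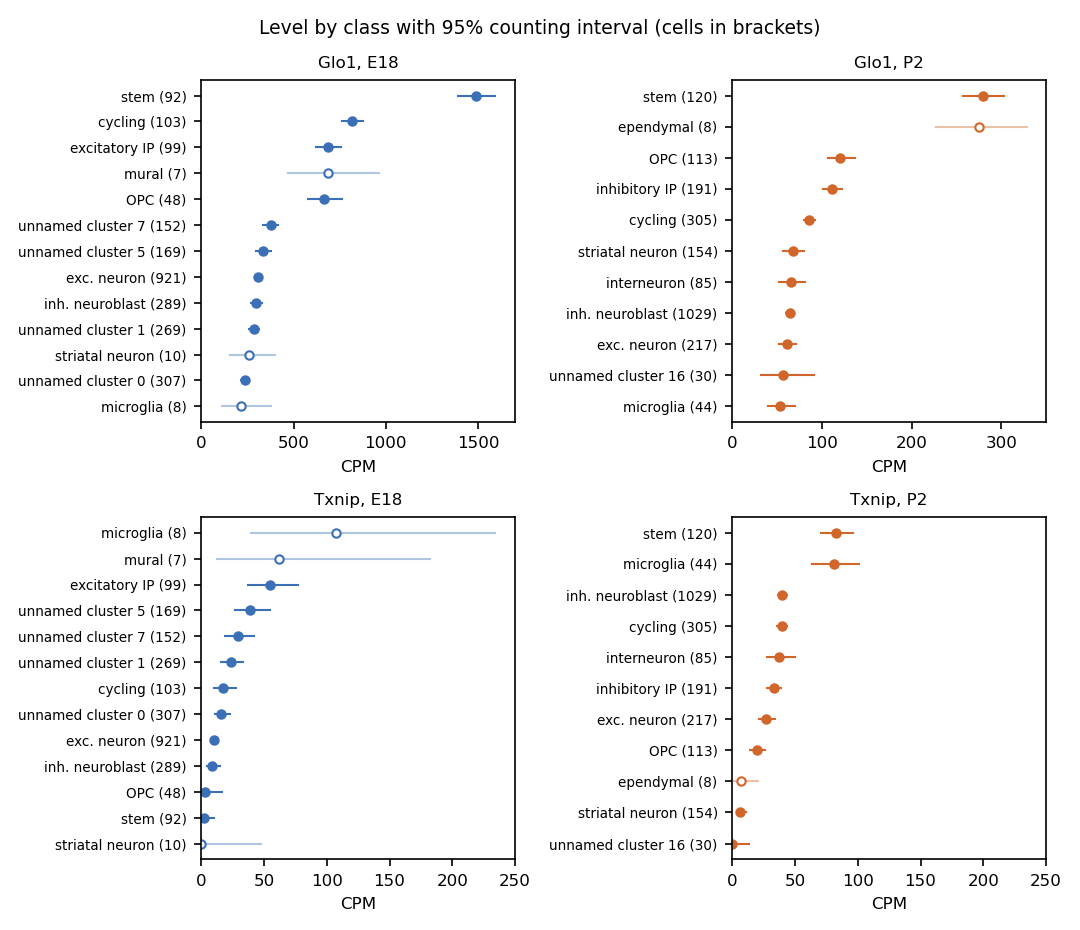
Levels of Glo1 and Txnip (CPM) in every class of each library, sorted by level, with bars for the 95% counting interval, cell numbers in brackets and open points for classes of under 20 cells. IP stands for intermediate progenitor, exc. for excitatory and inh. for inhibitory, and the Glo1 axes differ between the libraries. The exc. neuron class at E18 and the inh. neuroblast class in both libraries include clusters led by markers of other classes. Stem cells lead for Glo1 in both libraries (1488 and 279 CPM), whereas for Txnip they have 1.80 CPM at E18 and 82.7 CPM at P2.

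The share of cells with a UMI gave the same directions at equal depth. Thinned to 3000 UMIs a cell, with 112 E18 and 116 P2 shallower cells left out, Hddc3 was found in 26.7% of E18 and 2.46% of P2 cells, against 49.8% and 11.9% unthinned. Glo1 was found in 62.4% and 21.6% of thinned cells, against 84.0% and 58.8% unthinned. AY036118 went from 1.21% to 27.8% (2.75% and 71.3% unthinned), Rpgrip1 from 0.741% to 13.5% (1.70% and 44.8%) and Txnip from 5.18% to 10.1% (10.1% and 32.1%). AY036118 was not concentrated in a few E18 cells: no E18 cell held more than 1 of its UMIs, while a P2 cell held up to 11. As a gauge of free RNA, 8 genes of neurons or neuroblasts stood in microglia at a median of 0% (0 to 3.71%) of their level in those cells at E18 and 1.47% (0.768 to 2.27%) at P2. The E18 values came from 8 microglia, in which most of these genes had 0 UMIs, and the P2 values from 44. Low levels of free RNA would not be seen in so few E18 cells, so the libraries cannot be compared by this gauge.

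Contrasts inside the P2 library played no part in the choice of the genes. P2 cells with EYFP (838) and without (1458) differed little for all 5. The log2 ratio of cells with over cells without EYFP was 0.12 (0.02 to 0.22) for Glo1, -0.08 (-0.41 to 0.25) for Hddc3 and 0.06 (-0.08 to 0.19) for Rpgrip1. The ratio was -0.13 (-0.23 to -0.04) for AY036118 and -0.23 (-0.39 to -0.07) for Txnip. The interval lay above 0 for 1 of the 5 and below 0 for 2, where 16.4% of all genes were higher in cells with EYFP and 16.8% in cells without it beyond their intervals. Within cycling cells AY036118, at -0.44 (-0.66 to -0.22), and Txnip, at -0.43 (-0.75 to -0.11), were lower with EYFP, a direction seen beyond the interval in 6.19% of all genes there. Txnip was also lower with EYFP in inhibitory intermediate progenitors, at -0.52 (-1.05 to -0.01), as were 5.99% of all genes. Glo1 had the opposite sign to its overall ratio in the pooled inhibitory neuroblast clusters, at -0.25 (-0.48 to -0.02), as did 9.28% of all genes. Within excitatory neurons Rpgrip1 was lower with EYFP, at -1.44 (-2.12 to -0.70), as were 4.25% of all genes. The 38 cells without EYFP had a median of 4782.5 UMIs against 13238 in the 179 with it. The part of depth in that value was not tested.

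P2 cells of both sexes had similar levels of 4 of the genes. The log2 ratio of male over female cells was 0.03 (-0.08 to 0.14) for Glo1, -0.20 (-0.57 to 0.17) for Hddc3, -0.04 (-0.15 to 0.06) for AY036118 and 0.11 (-0.03 to 0.26) for Rpgrip1. Txnip was higher in male cells, at 41.8 CPM against 32.4 CPM, a log2 ratio of 0.37 (0.19 to 0.54). It was the only 1 of the 5 whose interval left 0, where 7.66% of all genes were higher in male cells and 6.52% in female cells. E18 held no cells called female, so its sexes could not be compared. Between male cells of the libraries alone, the Txnip ratio was 1.48.

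**Figure D4:**
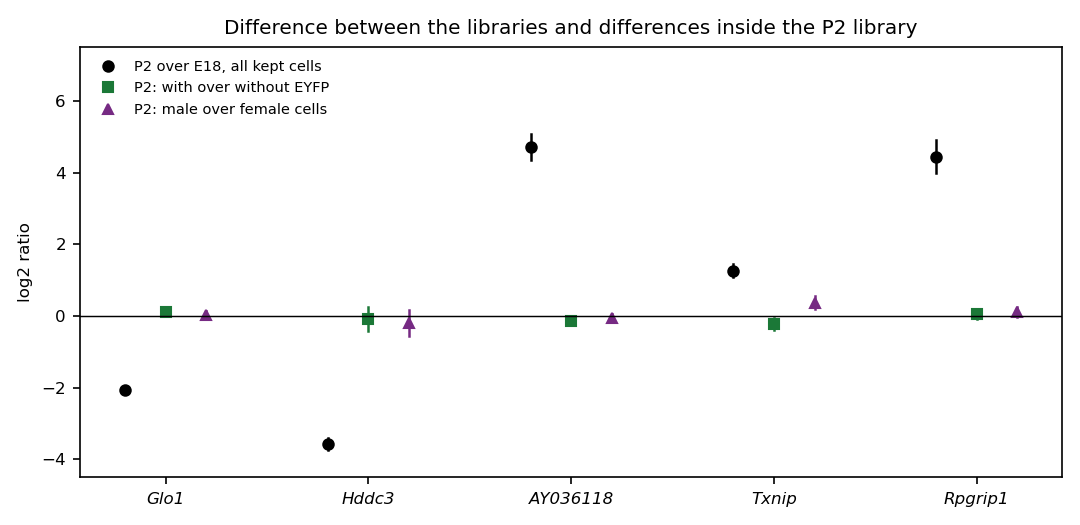
log2 ratios with bars for the 95% counting interval (hidden where shorter than the symbol): P2 over E18 in all kept cells (black), P2 cells with over without EYFP (green) and P2 male over female cells (purple). The ratios inside the P2 library lie between -0.23 and 0.37 for all 5 genes, and those between the libraries between -3.56 and 4.70.

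On the chromosome, ratios differed from gene to gene around each listed gene with measured neighbours, which were all but AY036118. Of 32 RefSeq neighbours (the nearest 3 on each side and overlapping genes, GRCm38), 21 were measured. Among these, 0 had cluster ranges that did not overlap. That call needed 100 or more UMIs, which some of the 21 lacked, such as Fes with 6 at E18 and 65 at P2. Of all genes with 100 or more UMIs, 1.82% had separate ranges with P2 higher and 0.699% with E18 higher. With shares this small, 0 among so few genes says little about the neighbours. Gm42418, which overlaps AY036118 but is not among the 32, did have separate ranges. Its highest E18 cluster had 84.9 CPM and its lowest P2 cluster 902 CPM. Hddc3 (chr7:80343104-80350547, plus strand) was lower at P2 while all 6 of its neighbours were higher beyond their intervals when scaled by all UMIs, and 3 of 6 with TMM. Of all genes, 51.4% and 39.6% were higher by these scalings. The ratios ran from 0.23 (0.06 to 0.41) for Unc45a, a myosin chaperone, to 2.60 (2.44 to 2.77) for Prc1, a cytokinesis protein. Man2a2, a Golgi mannosidase gene that overlaps it on the minus strand, had a ratio of 0.30 (0.14 to 0.46). Glo1 (chr17:30584936-30626871, minus strand) was flanked by Btbd9, also lower at P2, at -1.23 (-1.32 to -1.14), and, farther on that side, by Zfand3 at 0.00 (-0.12 to 0.13) and Mdga1 at -1.54 (-1.75 to -1.33). On its other side the overlapping lncRNA 1700097N02Rik had 3 UMIs at E18 and 90 at P2, a ratio of 3.91 (2.32 to 6.22). The segment with Glo1 is known to differ in copy number among mouse strains, and copy number was not measured here.

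Rpgrip1 (chr14:52110704-52163546, plus strand) lay in a stretch where 5 of 6 measured neighbours were higher at P2, or 4 of 6 with TMM, against the same 51.4% and 39.6% of all genes. Supt16, a FACT histone chaperone subunit gene on the minus strand that overlaps the end of Rpgrip1, had 49.9 CPM in E18 cells and 203 CPM in P2 cells, a ratio of 2.03 (1.93 to 2.13). Chd8, a chromatin remodeller, had 1.11 (1.01 to 1.22) and Zfp219 1.93 (1.76 to 2.10), while Hnrnpc, next to Rpgrip1, had -0.05 (-0.09 to -0.00). Txnip (chr3:96557957-96561883, plus strand) had neighbours whose intervals held 0 in Polr3gl, at -0.09 (-0.23 to 0.05), and Lix1l, at -0.09 (-0.21 to 0.03), and a lower one between them in Ankrd34a, at -3.25 (-4.00 to -2.56). With TMM all 4 of its measured neighbours were lower beyond their intervals, where 36.4% of all genes were. Its overlapping antisense gene Gm15441 had 30 and 41 UMIs and a ratio of -0.54 (-1.26 to 0.19). The 6 RefSeq neighbours of AY036118 had no UMIs.

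**Figure D5:**
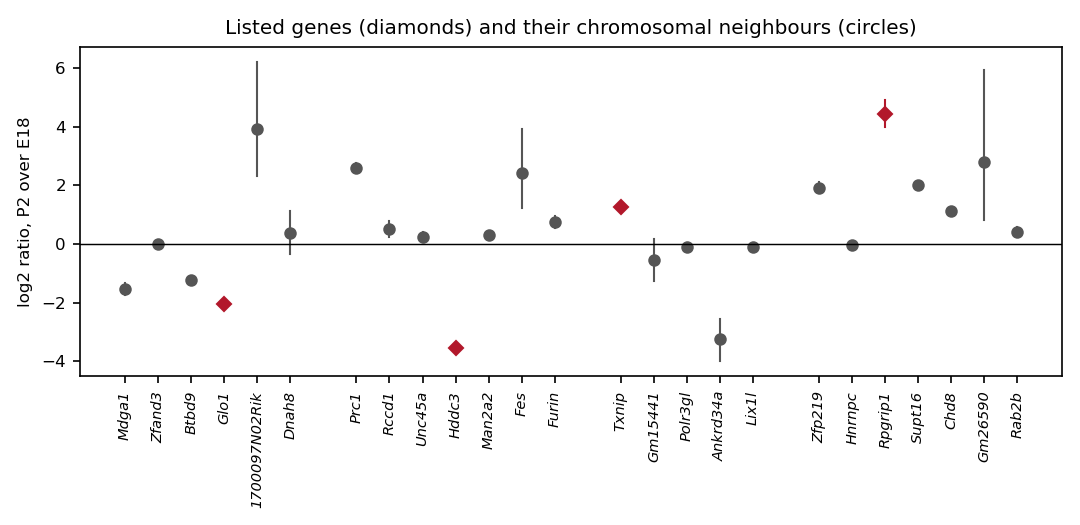
log2 ratio of P2 over E18 in all kept cells for Glo1, Hddc3, Txnip and Rpgrip1 (red diamonds) and their measured neighbours (grey circles) in chromosomal order, with bars for the 95% counting interval. Hddc3 at -3.56 lies among neighbours between 0.23 and 2.60, and Rpgrip1 at 4.43 lies above Supt16 at 2.03.

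AY036118 (chr17:39847113-39848035, minus strand, annotated as a lincRNA of 923 bases) lies within Gm42418 on the plus strand. All 923 of its bases, read as the reverse complement, match bases 156 to 1078 of the Gm42418 transcript without a gap, so the annotation counts that stretch of rRNA-like DNA on each strand. The stretches below show each annotated transcript around its longest run of A, in capitals, since the libraries were labelled as polyadenylated RNA. The run has 4 bases in AY036118 (bases 614 to 707 shown) and 6 in Gm42418 (bases 165 to 260 shown).
AY036118: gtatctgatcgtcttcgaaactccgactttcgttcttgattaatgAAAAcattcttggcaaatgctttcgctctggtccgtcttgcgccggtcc
Gm42418: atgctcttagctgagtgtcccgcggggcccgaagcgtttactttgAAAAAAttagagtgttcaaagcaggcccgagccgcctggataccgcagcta

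Gm42418 differed between the libraries like AY036118, at 57.1 CPM in E18 and 1184 CPM in P2, a log2 ratio of 4.37 (4.29 to 4.46). A fixed list held transcripts taken to overlap ribosomal RNA sequence, which was examined here only for AY036118 and Gm42418. Besides AY036118, all 4 of 4, Gm42418 among them, were higher at P2 by either scaling, with a median of 2.29. The rest were Gm26917 at 2.47 (2.25 to 2.71), Lars2, the mitochondrial leucyl-tRNA synthetase gene, at 2.11 (1.88 to 2.34), and Gm47283 at 0.46 (0.40 to 0.52). For comparison, 51.4% of all genes were higher and 26.9% lower beyond their counting intervals when scaled by all UMIs, and 39.6% and 36.4% with TMM. The labels do not record whether counting used strand, but UMIs of the overlapping pair were separate: 50 of the 68 E18 cells with AY036118 had no Gm42418 UMI. At P2, 0 of the 1636 cells with AY036118 lacked Gm42418, and 2 held more UMIs of AY036118 than of Gm42418. Of 7 long nuclear noncoding RNAs, 6 were higher and 1 lower by either scaling, with a median of 0.54. Neat1, the scaffold of paraspeckles, stood at 3.28 (2.80 to 3.79), and Malat1 at 0.54 (0.54 to 0.55).

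The upstream sequence of Txnip is shown because its level depended on the class and because its known carbohydrate response element, bound by the Mlxip and Mlxipl proteins with Mlx, lies close to the start. RefSeq's GRCm38.p6 table gives the 250 bases before the start at chr3:96557707-96557956 on the plus strand. A match to 2 copies of CACGNG with 5 bases between them, searched on both strands, is in capitals and lies 85 to 69 bases before the start.
Txnip: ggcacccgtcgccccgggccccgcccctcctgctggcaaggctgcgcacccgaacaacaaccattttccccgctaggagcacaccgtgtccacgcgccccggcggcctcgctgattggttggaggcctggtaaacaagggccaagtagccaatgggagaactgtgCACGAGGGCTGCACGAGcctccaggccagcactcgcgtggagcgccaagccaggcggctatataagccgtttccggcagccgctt
This paired motif occurred in 15 of 32851 upstream windows of that length, or 0.0457%. The windows of Glo1, Hddc3, Rpgrip1 and the related arrestin Arrdc4 held no such match. Arrdc4 had 1 CACGTG, as did 6.02% of windows at least once. A match is a description of letters, not of binding.

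The relatives of Txnip were mixed. Beside the counts in this paragraph, 51.4% of all genes were higher and 26.9% lower at P2 beyond their intervals, and 39.6% and 36.4% with TMM. Among the other 9 measured alpha-arrestins and glucose-sensing factors, 4 were higher and 3 lower at P2 beyond their intervals, with a median log2 ratio of -0.13, and with TMM 4 and 5. Arrdc4, an arrestin with the same sensing factors, had 0.74 (0.58 to 0.90), Arrdc3 -0.87 (-0.99 to -0.75) and Arrdc1 -1.33 (-1.66 to -1.01). Mlxip, the gene of the glucose sensor MondoA, had 1.22 (0.96 to 1.5), its partner Mlx -0.75 (-0.89 to -0.61), and Mlxipl, the gene of ChREBP, 2.03 (0.90 to 3.41) from 7 and 57 UMIs. In the thioredoxin system, 8 of 12 genes were higher and 4 lower (4 and 6 with TMM), with a median of 0.29. Its members stayed within a single log2 unit of 0, such as Txn1, thioredoxin itself, at 0.21 (0.17 to 0.25). Of 12 glucocorticoid-responsive genes, 9 were higher and 2 lower (7 and 3 with TMM), with a median of 0.56. They included Pdk4, a brake on pyruvate oxidation, at 2.46 (1.57 to 3.51), the cell cycle inhibitor Cdkn1a at 2.22 (1.95 to 2.50) and the metallothionein Mt1 at 2.08 (2.01 to 2.16), while Ddit4, an inhibitor of mTORC1, was lower at -0.90 (-0.99 to -0.80).

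The pathways of the other listed genes held ratios in both directions. The counts below stand beside 51.4% of all genes higher and 26.9% lower at P2, or 39.6% and 36.4% with TMM. Past 4-fold were 13.6% of all genes with P2 higher and 3.43% with E18 higher. In glyoxalase and carbonyl detoxification, 9 of the 14 genes besides Glo1 were higher and 4 lower (5 and 6 with TMM), with a median of 0.34. Hagh, glyoxalase 2, which acts after Glo1, had -0.23 (-0.37 to -0.10), and Park7, also ascribed a glyoxalase activity, -0.34 (-0.38 to -0.30). Gclc, the rate-limiting subunit of glutathione synthesis, was higher at 2.11 (1.86 to 2.37). It was 1 of 2 in the list past 4-fold, with Ldhd, a lactate dehydrogenase gene, at 3.21 (1.26 to 6.31) from 2 and 37 UMIs. In NADPH supply and nucleotide hydrolysis, 8 of the 14 genes besides Hddc3 were higher and 5 lower (7 and 6 with TMM), with a median of 0.48. Hddc2, an HD-domain relative of Hddc3, had -0.28 (-0.39 to -0.17), and the NAD kinase gene Nadk -0.47 (-0.59 to -0.35). None of these 14 passed 4-fold. In the ciliary transition zone, 10 of the 18 genes besides Rpgrip1 were higher and 2 lower (8 and 5 with TMM), with a median of 0.35. Its binding partner Rpgr had 0.49 (0.34 to 0.64), its paralogue Rpgrip1l 0.57 (0.29 to 0.86) and Cc2d2a 1.79 (1.43 to 2.16), all below the ratio of Rpgrip1.

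Genes with separate cluster ranges and the widest gap between them gave the listed genes a setting. Over all such genes, Hddc3 ranked 4 with E18 higher, behind Gm10260, Gm8797 and BC023719, and with P2 higher AY036118 ranked 3 and Rpgrip1 10. The next sentences leave out mitochondrial, ribosomal protein, haemoglobin and sex-linked genes and unnamed predicted genes such as Gm10260. With E18 higher, BC023719 then came first, at 41.4 to 88.9 CPM across E18 clusters and 0 to 0.388 CPM across P2 clusters, and Hddc3 second, ahead of Tpm3-rs7 and Fam32a. With P2 higher, AY036118 then came first, followed by Purb, a single-stranded nucleic acid binding protein gene, at 16.8 to 67.5 CPM in E18 and 227 to 336 CPM in P2. The stress-responsive gene Gadd45b came next, at 0 to 5.48 and 36.4 to 89.0 CPM. Rpgrip1 came after Nufip2, Ranbp2 and Egln1.

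Likeness of pattern was measured as Pearson's r of log2(CPM + 10) over the 32 clusters, which share a library and its depth, so that any pair of genes with separate ranges correlates. Hddc3 and AY036118 had r = -0.98 over all clusters, but -0.15 within E18 and 0.17 within P2. The nearest gene to AY036118 was Gm42418 (r = 0.99 over all clusters, 0.14 within E18 and 0.48 within P2). The nearest to Hddc3 was Gm8797 (0.99, 0.16 and 0.68) and to Rpgrip1 Gm17092 (0.97, 0.19 and 0.77). Glo1 and Txnip differed in that their nearest genes also followed them within each library: Cox14 for Glo1 (0.93, 0.71 and 0.74) and Ubn1 for Txnip (0.79, 0.73 and 0.77). The log2 ratio between the libraries was -0.77 (-0.84 to -0.71) for Cox14 and 1.05 (0.94 to 1.16) for Ubn1.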

How the data were processed

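The values are counts: per the file headers and the submitters' processing notes, the authors ran Cell Ranger 4.0.0 against mm10 and deposited UMI counts without normalization. The other deposited files name the genes and barcodes and have no measured value. Cells with 500 or more genes and at most 10% mitochondrial UMIs were kept, which removed 291 E18 and 336 P2 barcodes. Scrublet's automatic threshold marked 42 cells at E18 but 5 at P2 (0.205%), which is not a working call, so the highest 5% of scores were dropped as well, 156 and 144 cells in all. Another 1 and 2 cells carried markers of distinct classes and were set aside. The kept cells held 18041848 and 35948477 UMIs.

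Each library was clustered by itself with scanpy 1.11.5 (2000 variable genes, 30 components, 15 neighbours) and Leiden at resolution 1 (leidenalg 0.10.2), without the 5 genes, EYFP, mitochondrial, haemoglobin and sex-linked genes. A class name needed 4 detected markers. Summed counts were scaled to CPM. Intervals (scipy 1.17.1) are exact Poisson, exact conditional or Clopper-Pearson, at 95%. TMM came from edgeR 4.0.16. Ratios needed 10 UMIs over both libraries. Gene positions are from GENCODE M21 (GRCm38) and sequences from RefSeq's GRCm38.p6 promoter table and GENCODE transcripts. The genes named besides the 5 were those of fixed lists, chromosomal neighbours, the 5 most correlated genes and the 10 widest gaps per direction, leaving out sex-linked genes, those for haemoglobin or ribosomal proteins, mitochondrial ones and predicted genes without a name. The 5 genes and all lists were chosen with earlier results of these data known. Alternatives were other cell filters, doublets kept, TMM, scaling outside mitochondrial and ribosomal protein genes, thinning and resolution 0.5. Restriction to male cells and to P2 cells with EYFP was added after seeing the data.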

Additional observations from a re-analysis of the deposited data

How the results depend on the processing

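No alternative reversed a ratio between the libraries over all kept cells. For Glo1, the log2 ratio of -2.06 became -2.13 with a mitochondrial limit of 5%, -2.35 with TMM scaling, -2.19 after thinning to 3000 UMIs and -1.99 with P2 cells with EYFP only. For Hddc3 it became -3.85 with TMM. For Txnip it became 0.97 with TMM, 1.05 after thinning and 1.48 in male cells of both libraries. These values left the counting interval of the reported ratio, and the cause was not tested, except that TMM moves all genes alike. The other 32 of 40 values stayed within it, including all of AY036118 and Rpgrip1. By class, 133 of 139 values stayed within their intervals, and 6 moved. The sign turned in 1, Txnip in microglia, from -0.41 to 0.13 with a mitochondrial limit of 5%, where the reported interval held 0. In 5 of the 6 that moved the gene was Glo1, which reached -3.87 in cycling cells with a mitochondrial limit of 5% and -1.97 in stem cells at resolution 0.5. At that resolution the E18 stem cell cluster also had cycling markers among its leading genes. The cycling class at resolution 0.5 could not be compared, nor could striatal projection neurons with the 5% limit, without a cell filter or with doublets kept. TMM also moved the medians of 7 of 8 gene lists. Depth limits the E18 side most, where AY036118 and Rpgrip1 had 68 and 43 UMIs. No paired analysis was possible because each age had 1 library.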
